A study of Mus musculus with 12 samples.

Results

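Genes that copy DNA in S phase were followed in mouse liver after overexpression of ChREBP, the glucose-responsive transcription factor encoded by Mlxipl. The set held 36 genes of origin licensing, replication forks, deoxynucleotide supply, entry into S phase and maintenance methylation, chosen by gene symbol from a named list, and all 36 were among the 19938 genes with a row of their own on the array. Livers came from male C57BL/6J mice labelled as 8 weeks old, which had received an adenovirus carrying GFP (the control protein) or ChREBP through the tail vein. All mice were studied in the fed state, 3 weeks after the injection. There were 6 GFP and 6 ChREBP mice with 1 array each, described in the labels as biological replicates. Both groups therefore carried an adenovirus, and no mouse without one was analysed here. The labels call the overexpression liver specific. Which promoter drives the transgenes, and which species and isoform the ChREBP sequence comes from, is not given in the sources used here. The dose in the labels has lost its formatting, and the study's methods state a dose for its Phf2 and GFP adenoviruses without naming the ChREBP virus, so none is given here. Without scan dates no array batch was tested.

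Before a cell enters S phase, the origin recognition complex with Cdc6 and Cdt1 loads the MCM helicase onto DNA, a step called licensing. Cdc45 and the GINS complex then switch the helicase on, and the polymerases follow on the unwound strands, held by a sliding clamp that a loader complex closes around DNA. Adult hepatocytes rarely divide, are often polyploid, and re-enter the cycle when liver mass is lost. Many replication genes are known targets of E2F transcription factors, which bind GC-rich sites close to the start of transcription. ChREBP, with its partner Mlx, binds carbohydrate response elements built from a pair of E-box-like motifs.

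The promoters were read first for these letters, since a shared E2F site is the textbook link between such genes. RefSeq windows of assembly GRCm38.p6, from 250 bases before to 50 bases after a start, were at hand for 30 of the 36 genes. They made up 37 windows, because 5 genes have more than 1. Mcm4, Gins1, Gins2, Pole, Rfc2 and Ccne2 had no window in the table. The motif letters TTTGGCGC, TTTCGCGC and TTTCCCGC, searched on both strands, stood in for E2F sites. At least 1 of them was found in 14 of the 37 windows (37.8%), compared to 606 of all 32851 windows in the table (1.845%). TTTGGCGC alone was in 7 windows (18.9% against 0.514% of all), TTTCGCGC in 8 (21.6% against 0.323%) and TTTCCCGC in 5 (13.5% against 1.07%). The first and the second can overlap on opposite strands, as they did in Mcm5 and Mcm6. The following 160 bases before the start are shown 5′ to 3′ on the strand of the gene, with E2F letters in capitals. The upper 4 belong to genes that were higher in ChREBP livers, and the last 2 to licensing genes that hold the letters without having passed the test.
Mcm6 (chr1:128359706-128359865, minus strand): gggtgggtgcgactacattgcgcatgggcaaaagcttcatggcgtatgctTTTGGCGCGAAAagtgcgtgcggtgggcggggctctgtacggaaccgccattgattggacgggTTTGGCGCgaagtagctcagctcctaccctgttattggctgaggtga
Mcm5 (chr8:75109349-75109508, plus strand): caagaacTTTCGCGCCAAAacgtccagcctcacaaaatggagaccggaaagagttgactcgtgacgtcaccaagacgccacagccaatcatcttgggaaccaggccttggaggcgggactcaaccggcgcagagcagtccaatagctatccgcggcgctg
Pola1 (chrX:93632156-93632315, minus strand): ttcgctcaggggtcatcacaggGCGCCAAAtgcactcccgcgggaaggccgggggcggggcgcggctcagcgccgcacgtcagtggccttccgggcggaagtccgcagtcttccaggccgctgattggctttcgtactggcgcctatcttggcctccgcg
Rfc3 (chr5:151651209-151651368, minus strand): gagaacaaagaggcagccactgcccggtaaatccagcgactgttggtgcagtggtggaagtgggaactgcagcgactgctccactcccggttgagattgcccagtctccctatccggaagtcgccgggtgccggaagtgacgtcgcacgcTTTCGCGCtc
Orc1 (chr4:108579294-108579453, plus strand): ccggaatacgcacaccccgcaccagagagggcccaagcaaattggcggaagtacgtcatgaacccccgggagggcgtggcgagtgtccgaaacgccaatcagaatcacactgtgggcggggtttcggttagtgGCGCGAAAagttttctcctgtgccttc
Cdc6 (chr11:98907991-98908150, plus strand): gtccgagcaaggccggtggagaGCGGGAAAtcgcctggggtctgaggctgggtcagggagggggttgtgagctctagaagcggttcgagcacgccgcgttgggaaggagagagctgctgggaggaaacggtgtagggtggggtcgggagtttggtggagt

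Mcm6 held 3 matches in these bases, of which 2 overlap on opposite strands. The genes whose windows held E2F letters were Cdc6, Cdt1, Dnmt1, Lig1, Mcm3, Mcm5, Mcm6, Mcm7, Orc1, Pola1, Pold1, Pole2, Rfc3 and Uhrf1. The E-box letters CACGTG were in 3 windows (8.11% against 7.15% of all), those of Fen1, Lig1 and Tyms. The CCAAT box letters CCAAT were in 21 windows (56.8% against 37.4%). The CHR element letters TTTGAA, known from promoters of mitosis genes, were in 4 windows (10.8% against 17.9%), whereas 13 of 18 windows of mitosis genes held them. A match to these letters describes the sequence and does not show that a factor binds there.

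The comparison of ChREBP with GFP livers asks which of these transcripts differ when ChREBP is in excess. Values are log2 RMA values as deposited by the authors, and each difference is ChREBP minus GFP on that scale. A gene was called at a Benjamini-Hochberg adjusted p under 0.05 in limma, adjusted over all 19938 genes. In ChREBP livers 25 of the 36 genes were higher, 1 (Mcm10) was lower and 10 were not called. Of all genes, 13.3% were called higher and 13.7% lower. With each array centred on its median, 2194 of all genes were higher and 5595 lower, compared to 2645 and 2730 as deposited, and 24 of the 36 were higher and 2 lower (Mcm10 and Pold1). The median difference of the 36 genes was 0.38, from -0.59 to 1.44, while that of all genes was -0.04. In 20 of the 36 every ChREBP array lay above every GFP array (8.33% of all genes), and in Mcm10 every ChREBP array lay below every GFP array (6.83% of all genes). Under a looser rule on p and a stricter one on size (unadjusted p under 0.05, at least 1.5-fold), 11 were higher (4.1% of all genes) and 1 was lower (1.6% of all genes). In whole liver, a transcript carried by fewer cells and less RNA per cell cannot be told apart.

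**Figure D1:**
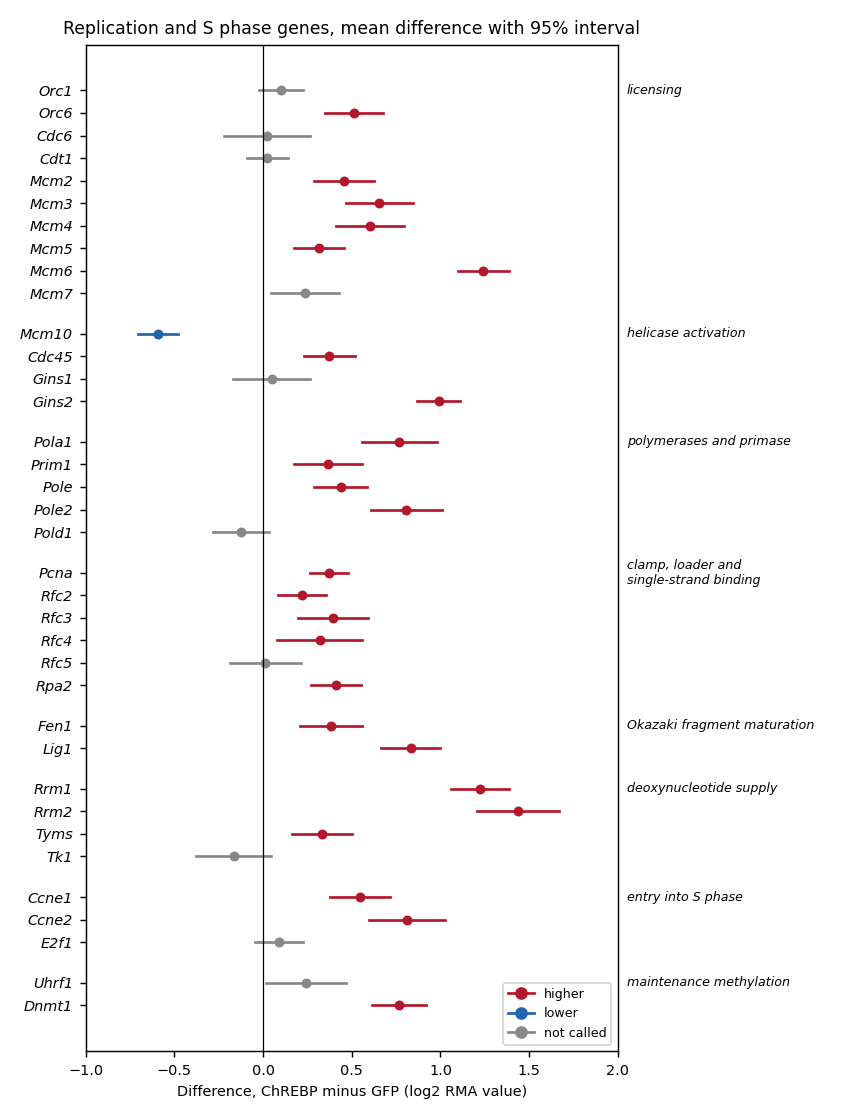
Mean difference (ChREBP minus GFP, log2 RMA value) of each of the 36 genes by role, with unadjusted 95% intervals from limma over 6 arrays per group, coloured by the call after adjustment over all genes. Rrm2 (1.44), Mcm6 (1.24) and Rrm1 (1.23) stand farthest to the right, and Mcm10 (-0.59) is the only gene called lower on its brightest row.

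The overexpressed gene was read as a check of the labels. Mlxipl read between 9.07 and 9.61 on the GFP arrays and between 10.74 and 10.96 on the ChREBP arrays, with no overlap. The difference was 1.57 (SE 0.09, exact two-sided permutation p = 0.00216 over 924 assignments, the smallest possible for 6 against 6). Over all rows, correlations were 0.979 to 0.995 within a group and 0.972 to 0.987 between groups, and the medians of the arrays ran from 5.96 to 6.05. No array was identical to another, and their number limits the precision.

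Among the 10 licensing genes, 6 were higher and 4 were not called, with a median difference of 0.39. All 6 that rose were Orc6 and the helicase subunits Mcm2, Mcm3, Mcm4, Mcm5 and Mcm6. Mcm6 read 7.11, 7.32 and 7.45 (lowest, median and highest) on the GFP arrays and 8.45, 8.53 and 8.70 on the ChREBP arrays. Its groups lay more than a log2 unit apart in the medians and did not overlap, for a difference of 1.24 (SE 0.067, 2.36-fold, adjusted p = 1.65e-08). Mcm3 read 5.61, 5.98 and 6.11 on the GFP arrays and 6.42, 6.59 and 6.85 on the ChREBP arrays, a difference of 0.65 (SE 0.088, adjusted p = 7.35e-05). Mcm4 went from a GFP median of 6.23 to a ChREBP median of 6.81, and Mcm2 from 6.78 to 7.16. In these 3 genes the groups were separate, with differences of 0.60 (SE 0.090) for Mcm4 and 0.46 (SE 0.078) for Mcm2. Mcm5 read 5.83, 5.91 and 6.10 on the GFP arrays and 6.05, 6.23 and 6.42 on the ChREBP arrays, so that 5 of 6 ChREBP arrays lay above all GFP arrays (difference 0.31, SE 0.066, adjusted p = 0.00262).

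Mcm7, the remaining subunit of the hexamer, was not called. It read 6.03, 6.23 and 6.47 on the GFP arrays and 6.28, 6.45 and 6.82 on the ChREBP arrays, and the groups overlapped. Its difference was 0.24 (unadjusted 95% interval 0.04 to 0.43, adjusted p = 0.0666), and it passed when GFP 5 was left out (0.29, adjusted p = 0.0306) and when ChREBP 1 was (0.27, adjusted p = 0.0478).

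Orc6, a subunit of the origin recognition complex, read 7.20, 7.45 and 7.61 on the GFP arrays and 7.74, 8.00 and 8.05 on the ChREBP arrays. Its difference was 0.51 (SE 0.076, adjusted p = 0.000169), with no overlap. Orc1, the ATP-binding subunit of the same complex, was not called, at 3.93, 4.06 and 4.21 on the GFP arrays and 4.07, 4.17 and 4.29 on the ChREBP arrays (difference 0.10, 95% interval -0.03 to 0.23). The loading factors Cdc6 (difference 0.02, 95% interval -0.22 to 0.27) and Cdt1 (difference 0.02, 95% interval -0.09 to 0.14) were not called either. The upper ends of these intervals all lie below the difference of Orc6. These 3 genes were also dimmer, with GFP means of 4.07 (Orc1), 5.19 (Cdc6) and 5.71 (Cdt1) compared to 7.44 for Orc6. Of the 10 uncalled genes in the set, 6 had a GFP mean below 6.33, the median level, as did 9 of the 25 called higher. How far a low level limits these differences was not tested.

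**Figure D2:**
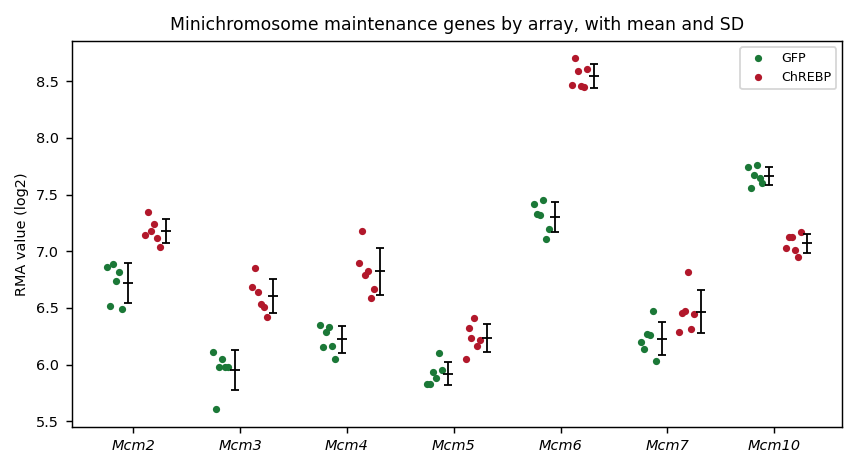
RMA values (log2) of the MCM genes on each array, GFP in green and ChREBP in red, with mean and SD of the 6 arrays beside the points. The Mcm6 groups are farthest apart (difference 1.24), Mcm5 and Mcm7 overlap, and Mcm10 runs the other way (-0.59).

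Of the 4 helicase activation genes, 2 were higher, 1 was lower and 1 was not called. Gins2, a GINS subunit, read 7.18, 7.35 and 7.46 on the GFP arrays and 8.23, 8.33 and 8.44 on the ChREBP arrays, a 1.99-fold difference (0.99, SE 0.057, adjusted p = 2.75e-08). Gins1, another subunit of the same complex, read 6.88, 7.30 and 7.47 on the GFP arrays and 7.14, 7.26 and 7.61 on the ChREBP arrays. The Gins2 groups were well apart, whereas those of Gins1 lay over each other (difference 0.05, 95% interval -0.17 to 0.27). Cdc45, which joins MCM and GINS in the active helicase, read 6.22, 6.32 and 6.48 on the GFP arrays and 6.61, 6.69 and 6.93 on the ChREBP arrays (difference 0.37, SE 0.067, adjusted p = 0.000828). Mcm10, which helps to activate the loaded helicase and is no subunit of the hexamer, fell. It read 7.56, 7.66 and 7.76 on the GFP arrays and 6.95, 7.08 and 7.17 on the ChREBP arrays. All 6 ChREBP arrays were below all GFP arrays, with a difference of -0.59 (SE 0.052, 0.663-fold, adjusted p = 1.42e-06).

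Among polymerases and primase, 4 of 5 genes were higher and 1 was not called, with a median difference of 0.44. Pole2, the second subunit of the leading strand polymerase epsilon, read 4.74, 4.90 and 5.01 on the GFP arrays and 5.37, 5.72 and 5.98 on the ChREBP arrays (difference 0.81, SE 0.093, adjusted p = 1.88e-05). Pole, its catalytic subunit, went from a GFP median of 5.19 to a ChREBP median of 5.63 (difference 0.44, SE 0.069). Pola1, the catalytic subunit of the polymerase that starts each new strand, read 6.52, 6.77 and 6.99 on the GFP arrays and 7.31, 7.51 and 7.75 on the ChREBP arrays (difference 0.77, SE 0.098, adjusted p = 4.87e-05). In these 3 genes the groups did not overlap. Prim1, the primase that lays down the RNA primer, differed by 0.37 (SE 0.089, adjusted p = 0.00699) with 4 of 6 ChREBP arrays above all GFP arrays. Pold1, the catalytic subunit of the lagging strand polymerase delta, was not called, at 6.26, 6.37 and 6.50 on the GFP arrays and 6.05, 6.21 and 6.50 on the ChREBP arrays. Its difference was -0.12 (95% interval -0.28 to 0.03), and it passed as lower without ChREBP 4 (-0.18, adjusted p = 0.0491).

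Of the clamp, loader and single-strand binding genes, 5 of 6 were higher and 1 was not called, and 0 of them reached a fold of 1.5. Pcna, the sliding clamp, read 10.43, 10.50 and 10.54 on the GFP arrays and 10.75, 10.84 and 11.05 on the ChREBP arrays (difference 0.37, SE 0.050, adjusted p = 7.70e-05). Both of its rows on the array gave nearly the same difference (0.37 and 0.38), although they may share signal with the pseudogenes Pcna-ps1 and Pcna-ps2. Row numbers of the set run in the order of the chromosomes, apart from Pcna and Tk1. The row kept for Pcna falls between Uhrf1 (chromosome 17) and Fen1 (chromosome 19). Its other row falls between Mcm10 and E2f1 on chromosome 2, where Pcna lies. What each row measures was not tested. Rpa2, a subunit of the protein that coats single strands, went from a GFP median of 6.69 to a ChREBP median of 7.14, and the groups did not overlap (difference 0.41, SE 0.066). In the clamp loader, Rfc3 differed by 0.39 (SE 0.092, adjusted p = 0.00555) with separate groups, Rfc2 by 0.22 (SE 0.063, adjusted p = 0.0194) and Rfc4 by 0.32 (SE 0.111, adjusted p = 0.0473). The last of these calls lies close to the threshold, and Rfc2 was not called after a repeated quantile normalization (adjusted p = 0.0772). Rfc4 was not called without any single one of GFP 1, GFP 2, GFP 5, GFP 6, ChREBP 2, ChREBP 3, ChREBP 4 and ChREBP 6, at adjusted p values of 0.0611 to 0.1002. Rfc5, which belongs to the same loader, read 7.66, 7.99 and 8.26 on the GFP arrays and 7.78, 8.05 and 8.13 on the ChREBP arrays (difference 0.01, 95% interval -0.18 to 0.21).

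Both genes of Okazaki fragment maturation were higher. Lig1, the ligase that seals the fragments of the lagging strand, read 6.46, 6.67 and 6.75 on the GFP arrays and 7.22, 7.44 and 7.66 on the ChREBP arrays, with no overlap (difference 0.83, SE 0.078, 1.78-fold, adjusted p = 2.73e-06). Fen1, the flap nuclease that trims their ends, differed by 0.38 (SE 0.081, adjusted p = 0.00287) with 5 of 6 ChREBP arrays above all GFP arrays.

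Of the deoxynucleotide supply genes, 3 of 4 were higher and 1 was not called, with a median difference of 0.78. Rrm2, the small subunit of ribonucleotide reductase, read 6.53, 6.72 and 7.04 on the GFP arrays and 7.99, 8.16 and 8.54 on the ChREBP arrays. Its difference was the largest of the 36 genes (1.44, SE 0.107, 2.71-fold, adjusted p = 3.53e-07). Rrm1, the large subunit, read 6.70, 6.91 and 7.16 on the GFP arrays and 7.98, 8.14 and 8.32 on the ChREBP arrays (difference 1.23, SE 0.076, 2.34-fold, adjusted p = 5.66e-08). Both subunits of the enzyme that reduces ribonucleotides were thus well apart between the groups. Tyms, which makes thymidylate, went from a GFP median of 7.43 to a ChREBP median of 7.75 (difference 0.33, SE 0.078, adjusted p = 0.00601). Tk1, the thymidine kinase of the salvage route, was not called on its brighter row, at 7.37, 7.75 and 8.04 on the GFP arrays and 7.36, 7.59 and 7.77 on the ChREBP arrays (difference -0.17, 95% interval -0.38 to 0.04). In the fit over every single-symbol row, its other row was lower (difference -0.32, adjusted p = 0.00939). The rows of Tk1 thus disagree on the call, and neither pointed upward. By row number, the brighter row falls between Gins2 (chromosome 8) and Dnmt1 (chromosome 9). The other falls between Cdc6 (chromosome 11) and Rrm2 (chromosome 12), and Tk1 itself lies on chromosome 11. Which row measures Tk1 was not tested, and the counts here use the brighter one.

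Among the genes of entry into S phase, both E cyclins, the partners of Cdk2 at the start of S phase, were higher. Ccne2 read 5.31, 5.57 and 5.79 on the GFP arrays and 6.13, 6.40 and 6.71 on the ChREBP arrays (difference 0.81, SE 0.099, 1.76-fold, adjusted p = 3.14e-05). Ccne1 read 5.54, 5.86 and 6.02 on the GFP arrays and 6.21, 6.40 and 6.54 on the ChREBP arrays (difference 0.55, SE 0.078, adjusted p = 0.00013). Neither cyclin had overlapping groups. E2f1, an activator of the E2F family, was not called, at 5.74, 5.86 and 6.10 on the GFP arrays and 5.90, 6.00 and 6.06 on the ChREBP arrays (difference 0.09, 95% interval -0.05 to 0.22). For maintenance methylation, Dnmt1, the enzyme that copies methyl marks onto the new strand, read 7.68, 7.99 and 8.09 on the GFP arrays and 8.61, 8.68 and 8.85 on the ChREBP arrays. The groups did not overlap (difference 0.77, SE 0.070, 1.70-fold, adjusted p = 2.31e-06). Uhrf1, which brings Dnmt1 to hemimethylated sites, was not called, at 5.90, 6.17 and 6.27 on the GFP arrays and 6.20, 6.26 and 6.85 on the ChREBP arrays (difference 0.24, adjusted p = 0.102). The highest of its values came from ChREBP 2.

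**Figure D3:**
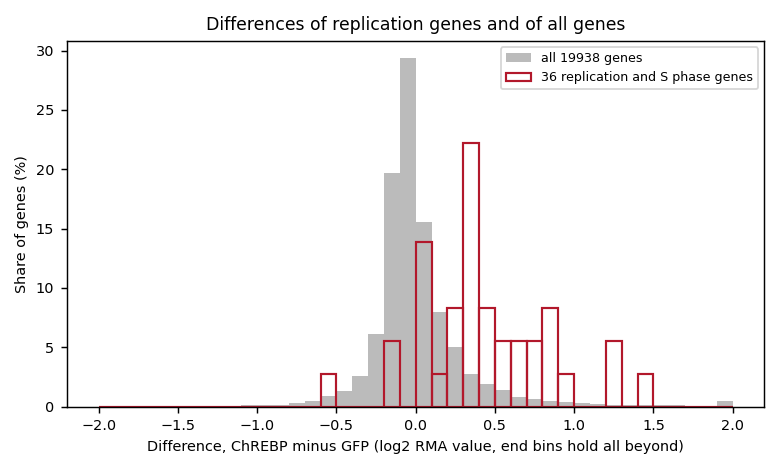
Distribution of differences (ChREBP minus GFP, log2 RMA value, in bins) as a percentage of the 36 replication and S phase genes (red outline) and of all 19938 genes (grey). The median lies at 0.38 for the 36 genes and at -0.04 for all genes, and the outline reaches from -0.59 to 1.44.

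Some subunits of the same complex moved by unequal amounts. For each pair of genes from a known complex, and for the E cyclins, the log2 ratio of the pair was taken within each array and compared between groups with an exact two-sided permutation test over 924 assignments. These 27 pairs were formed after the values had been seen, and p-values were adjusted over the 27 pairs, of which 14 were under 0.05. Mcm6 rose more than each of the other subunits of the MCM hexamer, by 0.59 (against Mcm3) to 1.00 (against Mcm7), with p = 0.00216 and adjusted p = 0.00835 in each of these exact tests. Mcm3 rose more than Mcm5 by 0.34, Mcm3 exceeded Mcm7 by 0.42, and Mcm4 exceeded Mcm7 by 0.36 (adjusted exact p = 0.0315 each). The other 7 of the 15 pairs in the hexamer did not pass. Gins2 exceeded Gins1 by 0.94 (SE 0.108) and Orc6 exceeded Orc1 by 0.41 (SE 0.085). In both pairs the ratios of the groups did not overlap (adjusted exact p = 0.00835). Orc1 is among the 25% dimmest genes, at 3.93 to 4.21 on the GFP arrays. How far this low level limits its difference was not tested. Pola1 exceeded Prim1 by 0.40 and Ccne2 exceeded Ccne1 by 0.27 (adjusted exact p = 0.0315), while Pole2 exceeded Pole by 0.37 (adjusted exact p = 0.0417). In the clamp loader only the pair of Rfc3 and Rfc5 passed (0.38, adjusted exact p = 0.0315), of 6 pairs. Rrm2 exceeded Rrm1 by 0.21 (SE 0.116, exact p = 0.104, adjusted p = 0.134), which did not pass.

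**Figure D4:**
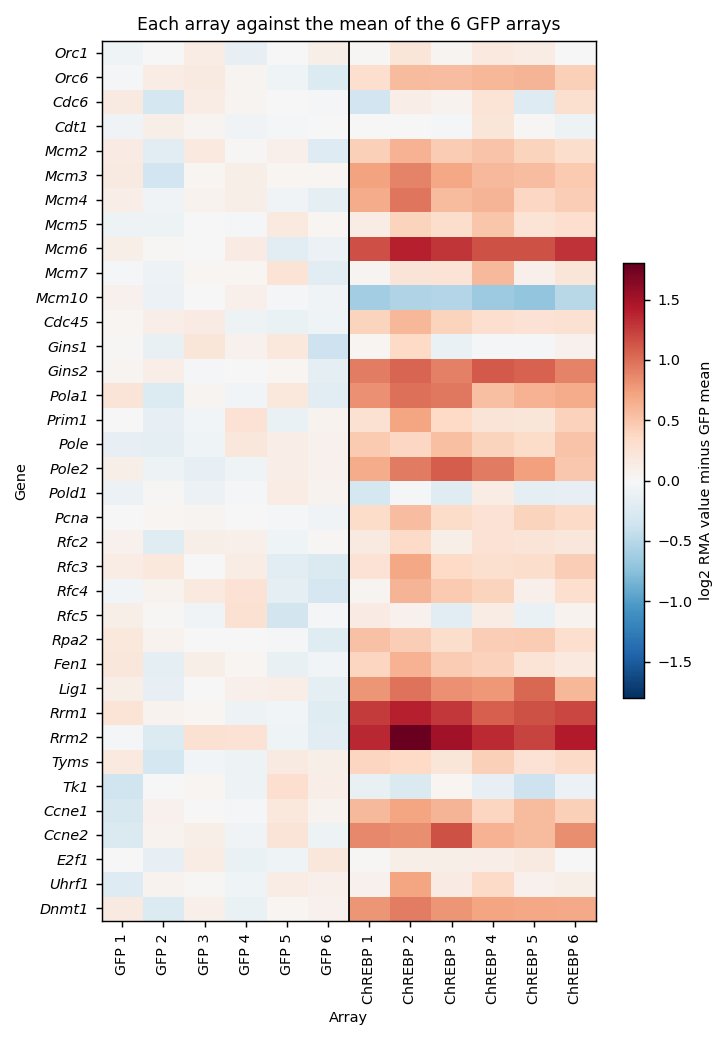
Log2 RMA value of each gene on each array minus the mean of the 6 GFP arrays, with red above and blue below that mean. All 25 genes called higher are above the GFP mean on every ChREBP array, which their call on the same arrays makes likely. Mcm10 is below it, and ChREBP 2 is the highest of its group in 16 of the 25.

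The rise was present in each ChREBP mouse, with differences in degree, as the map of array values shows. The median of the 36 deviations from the GFP mean was 0.357, 0.601, 0.377, 0.409, 0.294 and 0.331 on ChREBP 1 to ChREBP 6, and between -0.0767 and 0.04 on the GFP arrays. Of all 36 genes, 30 to 33 were above the GFP mean on each ChREBP array, compared to 14 to 27 on each GFP array. The 25 genes called higher were above it on all 6 ChREBP arrays, which their call on the same arrays makes likely. ChREBP 2 had the highest value of its group in 16 of these 25, while ChREBP 6 had the lowest in 8 and ChREBP 5 in 7. Among the GFP arrays, GFP 6 had the lowest value in 10 and GFP 2 in 9. Mlxipl itself was lowest on ChREBP 5 (10.74) and highest on ChREBP 3 (10.96).

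Genes with and without E2F letters in their promoter windows were both represented among those called. Of the 14 genes with the letters, 8 were higher and 6 were not called, with a median difference of 0.35. Of the 16 genes with a window but without the letters, 12 were higher, 1 was lower and 3 were not called, with a median difference of 0.37. Only 3 exact strings of letters were searched, so a window without them may still hold an E2F site. The split therefore does not separate E2F targets from other genes. Mcm6, whose window is shown above with 3 matches, differed by 1.24. Orc1 and Cdc6, shown with 1 match each, differed by 0.10 and 0.02. Rrm1 and Rrm2, whose windows held none of the letters, differed by 1.23 and 1.44.

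Genes of the same pathway outside the set were counted from lists drawn up with earlier results of these data known. Of 38 other replication factors 21 were higher and 3 lower, with a median difference of 0.23. Wdhd1, which links the helicase to polymerase alpha, rose by 0.83, Chaf1b, a histone chaperone subunit, by 0.67, and Dscc1, of the cohesion clamp loader, by 0.61. Lower were the ribonuclease H2 subunits Rnaseh2c (-0.40) and Rnaseh2a (-0.34) and the nuclease-helicase Dna2 (-0.29). Of 13 other deoxynucleotide enzymes 6 were higher and 2 lower, with a median of 0.08. Ctps, which makes CTP, rose by 1.40, Samhd1, which degrades deoxynucleotides, by 0.67, and Umps, of pyrimidine synthesis, by 0.43, whereas Cad (-0.33), the entry enzyme of pyrimidine synthesis, and Nme1 (-0.28), a nucleoside diphosphate kinase, were lower. Of 19 other genes of the E2F and RB network 7 were higher and 2 lower, with a median of 0.14. The S phase cyclin Ccna2 rose by 1.45, and the pocket protein genes Rbl1 and Rb1 by 0.64 and 0.45. Of the E2F partners, Tfdp1 was higher (0.36) and Tfdp2 lower (-0.30), and the pocket protein gene Rbl2 was lower (-0.29). Together 34 of these 70 genes were higher and 7 lower, compared to 13.3% and 13.7% of all genes.

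Mitosis genes gave larger differences than the replication genes, a contrast that was not tested. All 19 measured mitosis genes were higher, with a median difference of 1.44, compared to 0.38 in the replication set. Top2a, which untangles sister chromatids, rose by 1.99, Cenpe, a kinetochore motor, by 1.88 and Tpx2, a spindle factor, by 1.76. Their mean log2 value was between 5.77 and 5.98 on the GFP arrays and between 7.06 and 7.46 on the ChREBP arrays, with the highest on ChREBP 2, as in the replication set.

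Markers of some of the cell types that whole liver can hold moved with the groups too. The mean of 7 hepatocyte markers was 12.99 to 13.11 on the GFP arrays and 12.77 to 12.92 on the ChREBP arrays, high on all 12 as the tissue label has it, and 5 of them were lower (Cps1 -0.43, Apoa1 -0.27, Fgb -0.25, Ahsg -0.19 and Ttr -0.11). The mean of 13 T and NK cell markers was 5.47 to 5.77 on the GFP arrays and 5.91 to 6.47 on the ChREBP arrays. Of these 8 were higher, among them the granzyme gene Gzma (1.85), Cd3g of the T cell receptor complex (1.07) and Nkg7 (0.99). Not called were Cd2 (0.71), Cd4 (-0.05), Prf1 (0.02), Klrb1c (-0.13) and Ncr1 (0.02). Klrb1c and Ncr1 had low GFP means, of 4.00 and 4.05. The mean of the 13 markers was highest on ChREBP 5. Among the ChREBP arrays, ChREBP 5 had the lowest median deviation over the replication genes. The mean of 14 macrophage markers was 8.14 to 8.38 on the GFP arrays and 8.48 to 8.75 on the ChREBP arrays, highest on ChREBP 2, where the replication genes were highest as well. Of these 8 were higher and 4 lower, led by Gpnmb (2.17), Timd4 (-1.59), which marks resident Kupffer cells, and the complement gene C1qb (0.59). Beside Timd4, the lower ones were Clec4f (-0.41), Marco (-0.35) and Vsig4 (-0.21), so the list did not move in 1 direction. B and plasma cell (7 genes) and neutrophil markers (8 genes) had 0 calls in limma or in an analysis of variance. At an unadjusted p under 0.05, limma gave 1 B and plasma cell marker (Pax5, -0.17) and 2 neutrophil markers (S100a9, 0.64, and Csf3r, 0.18). The part of these cells in the values of the replication genes was not tested, and without detection calls no marker could be called absent.

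**Figure D5:**
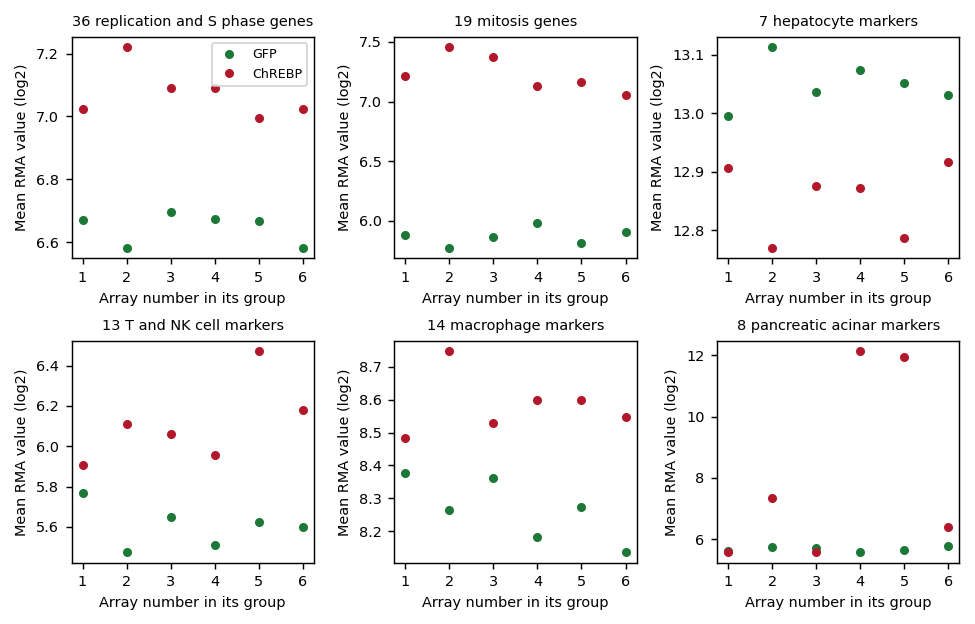
Mean log2 RMA value per array of the replication and S phase genes, the mitosis genes and 4 lists of cell type markers, GFP in green and ChREBP in red, on axes that differ between panels and with array numbers that do not pair the groups. The replication genes separate the groups without overlap (highest GFP array 6.70, lowest ChREBP array 6.996), while the acinar list is high on ChREBP 4 and ChREBP 5 and raised on ChREBP 2 and ChREBP 6.

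Of all genes, 13.3% were called higher and 13.7% lower, and in the other lists few markers were called. These were Lyve1 (0.57) among 8 endothelial genes, Rgs5 (0.44), Pdgfrb (0.25) and Reln (-0.36) among 8 stellate cell genes, Epcam (0.52) and Cftr (0.40) among 5 cholangiocyte genes, Alas2 (-1.43) among 5 erythroid genes and Plin1 (-0.22) among 4 adipocyte genes. ChREBP 5 had the highest mean of all arrays in several lists. It read 8.85 for endothelial markers (7.99 to 8.35 on the others), 6.69 for cholangiocyte markers (at most 6.27) and 6.26 for neutrophil markers (at most 5.85). Its means of T and NK cell markers (6.47, at most 6.18 on the others) and of B and plasma cell markers (5.69, at most 5.58) were the highest too. Without ChREBP 5, 25 of the 36 replication and S phase genes were higher and 1 was lower, with a median difference of 0.40. Pancreatic acinar transcripts had a mean of 5.59 to 5.78 on the GFP arrays and of 5.57 to 12.1 on the ChREBP arrays, and Cpb1 (3.69) was called. It was 12.1 on ChREBP 4, 11.9 on ChREBP 5, 7.35 on ChREBP 2 and 6.39 on ChREBP 6, while ChREBP 1 (5.59) and ChREBP 3 (5.57) read like the GFP arrays. ChREBP 2, where the replication genes were highest, was thus among the arrays with acinar signal. Without ChREBP 4 and ChREBP 5, 23 of the 36 replication and S phase genes were higher and 1 was lower, with a median difference of 0.41. The genes no longer called were Rfc2 (0.20, adjusted p = 0.0656) and Rfc4 (0.36, adjusted p = 0.0527). Without ChREBP 2 as the only array left out, 24 were higher and 1 was lower, with a median of 0.33. With ChREBP 1 and ChREBP 3 as the only ChREBP arrays kept, a comparison chosen after seeing the data, 19 were higher and 2 lower (Mcm10 and Pold1), with a median of 0.37. Mcm5, Prim1, Rfc2, Rfc3, Rfc4 and Tyms were then not called, and 3441 of all genes were called compared to 5375. The part of acinar RNA in the values was not tested further.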

How the data were processed

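Total RNA of 12 livers, 6 per virus, was amplified, biotin-labelled and hybridised to Affymetrix mouse gene arrays. RMA and Partek are named in the submitters' processing notes, with no version. The log2 values deposited by the authors are RMA output, which corrects background, normalizes arrays by quantiles and summarises probes, and this was kept as it was. Of 35556 rows, 21789 carry 1 gene symbol in the platform annotation, 1621 several and 12146 none. Symbols were updated through Entrez IDs, of which 21698 matched RefSeq (GRCm38.p6). The brightest row stood for each of 19938 genes, with no filter on dim genes. ChREBP and GFP arrays were compared two-sided and without covariates in limma 3.58.1 under R 4.3.3 (lmFit, eBayes, Benjamini-Hochberg over all genes), and Mlxipl and gene pairs with exact permutation tests. The procedure was tested on simulated data. Members, lists, motifs and the naming rule (every member, the 3 largest rises and falls of a pathway list, the called markers or the 3 of smallest p) were chosen with earlier results of these data known. Tfdp1, the lower macrophage markers and the uncalled T and NK cell markers were named beside that rule. Promoter letters and sequences come from RefSeq. Detection calls, scan dates and protein sequences were not used here. Same-numbered arrays did not deviate together, so the numbers were not treated as pairs.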

Additional observations from a re-analysis of the deposited data

Results flagged for a closer look

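In 74 groups of 6 arrays (the 36 genes and Mlxipl in both groups), the gap of the highest or lowest array to its neighbour was compared with the critical value of Dixon's test, which chance passes in about 1 in 20 groups. It was passed in 3 groups. Cdt1, the licensing factor, read 5.93 on ChREBP 4 compared to 5.62 to 5.73 on the other ChREBP arrays. Mcm7 read 6.82 on the same array compared to 6.28 to 6.47 on the others of its group. Mcm3 read 5.61 on GFP 2 compared to 5.98 to 6.11 on the other GFP arrays.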

How the results depend on the processing

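With a repeated quantile normalization, median centring, the 25% dimmest genes left out, all rows of a gene averaged, an analysis of variance, a replicate block, trended robust moderation, single arrays or pairs of arrays left out, between 24 and 27 of the 36 genes were called, and their median difference was 0.32 to 0.41. The dimmest genes left out included Orc1. At 1.5-fold or more with an unadjusted p under 0.05, 12 genes were called, and 1137 of all genes compared to 5375. Of the 25 genes called higher, 23 kept the call in all of the 21 alternatives named before that rule. Rfc4 lost it in 13 (adjusted p up to 0.126), and Rfc2 with the repeated quantile normalization (adjusted p = 0.0772), the replicate block (0.0707) and without ChREBP 4 and ChREBP 5 (0.0656). Of the genes not called, Orc1 passed with the repeated quantile normalization (0.15, adjusted p = 0.0408), Pold1 as lower with median centring (-0.18, 0.0434) and Tk1 as lower with the mean of its rows (-0.24, 0.0330). Genes near 0 changed sign without a call. Gins1 read -0.044 with the repeated quantile normalization, -0.0076 with median centring and -0.032 without GFP 6 and ChREBP 6. Rfc5 read -0.055 and -0.042 under the same normalizations. Cdc6 read -0.033 with median centring and -0.034 without GFP 6 and ChREBP 6, and Cdt1 read -0.032 with median centring and -0.025 without ChREBP 4 and ChREBP 5. With single arrays left out, Gins1 ran from -0.027 to 0.091, Rfc5 from -0.052 to 0.068, Cdc6 from -0.041 to 0.097 and Cdt1 from -0.016 to 0.046. With ChREBP 2, ChREBP 4, ChREBP 5 and ChREBP 6 left out together, an alternative chosen after seeing the data that leaves 2 ChREBP arrays, 21 of the 36 genes and 3441 of all genes were called, and Cdc6 (-0.14), Cdt1 (-0.012), Gins1 (-0.039) and Rfc5 (-0.032) changed sign without a call. Across all genes, 2645 were higher and 2730 lower, against 2194 and 5595 with median centring, which moved the median difference of all genes from -0.04 to -0.10, and 2555 and 3580 with the repeated quantile normalization. The cause of these shifts was not tested. The replicate block gave 25 calls, and among the 36 genes it ended no call but that of Rfc2. Same-numbered arrays correlated at -0.0609 to 0.254 in their deviations, and 2 of 12 arrays correlated best with their own number.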
